A study of Mus musculus with 12 samples.

Results

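Glycolysis turns glucose into pyruvate, and the next step decides whether pyruvate leaves the cell as lactate or enters the mitochondria. The genes described here are 31 genes of that route: glucose and lactate carriers, the enzymes from hexokinase to lactate dehydrogenase, the enzymes that set fructose 2,6-bisphosphate, the mitochondrial pyruvate carrier, and pyruvate dehydrogenase with its kinases. They were picked by gene symbol, with no expression value in the rule, from a table of 55421 genes. Earlier results of these data were known when the members and the gene lists used below were chosen. Their shares of calls are therefore not blind to the data. The 31 symbols match 32 table entries, because Aldoa appears a second time under another gene ID (ENSMUSG00000114515.2, chromosome 7, 126800790 to 126809108 on GRCm38). All 32 entries passed the filter on low counts, which 14460 of the 55421 genes passed.

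The cells are OT-I cells, mouse CD8 T cells that carry 1 transgenic receptor for an ovalbumin peptide. They were moved into host mice, the hosts were infected with Listeria monocytogenes engineered to make ovalbumin (LM-OVA), and the transferred cells were sorted again from the spleen. Donor cells were Rroid2 knockout (KO) or Rroid2 wild type (WT). Memory precursor effector cells (MPEC) are the effector cells that tend to survive as memory cells, and short-lived effector cells (SLEC) are those that mostly die after the infection is cleared. There were 6 groups of 2 libraries: KO MPEC on day 14, WT MPEC on day 14, KO SLEC on day 14, WT SLEC on day 14, KO SLEC on day 7 and WT SLEC on day 7 of infection. Every group, WT included, carries the OT-I receptor and saw the same infection. The labels give neither the Rroid2 allele, nor the age and strain of the hosts, nor the sort gates. Whether both libraries of a group came from separate mice is not stated, so the p-values measure the spread between these libraries, which may be technical.

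Glucose enters T cells through the carriers encoded by Slc2a1 and Slc2a3, and hexokinase traps it by phosphorylation. Phosphofructokinase commits the sugar to glycolysis, and lactate dehydrogenase regenerates the NAD that the triose stage needs, while pyruvate dehydrogenase kinases switch off the complex that would feed pyruvate to the mitochondria. Dividing effector CD8 T cells are known for high glycolysis with lactate export, and resting memory cells for a greater reliance on mitochondria.

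Library totals ran from 7603551 to 14026594 counts, and the members took 0.161 to 0.225% of them. Cd8a was high in all 12 libraries, and Cd4 had at most 14 counts in any. The sort labels matched their markers: Klrg1 was at 1.33 to 3.74 CPM, counts scaled to library size, in MPEC, against 132 to 157 CPM in SLEC on day 14, and Il7r was at 759.8 to 1037 CPM in MPEC, against 25.6 to 71.7 CPM in SLEC on day 14. No entry of the table bears the symbol Rroid2, so the loss of the targeted RNA was not read from a count. Both WT SLEC day 14 libraries stood apart. Their summed B cell markers (15 genes) were at 756 and 2892 CPM, against 26.1 to 395 CPM in the other 10 libraries. Monocyte and macrophage markers summed to 52.9 and 66.5 CPM in these libraries, against 7.15 to 35.2 CPM elsewhere. The WT SLEC day 7 replicate 1 library also stood apart. Its 18 proliferation markers summed to 1138 CPM, against 2532 to 3452 CPM in the other 3 SLEC day 7 libraries. In sorted bulk samples like these, fewer cells of a type and less RNA per cell cannot be told apart.

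Levels between genes can be compared only per length, here the merged exons of a gene, and by that scale the members spanned more than 2 orders of magnitude. Merged exons can be far longer than the longest coding transcript (13401 and 4145 bases for Pfkp, 4133 and 1420 for Gapdh). The order of the members depends on that choice. Aldoa, the aldolase that splits fructose 1,6-bisphosphate, had the highest median at 60.4 CPM per kilobase. Ldha, the lactate dehydrogenase subunit that favours making lactate, followed at 39.6, with Pkm, the pyruvate kinase of most dividing cells, at 35.8 and Gpi1, which interconverts the hexose 6-phosphates, at 32.0 CPM per kilobase. Within families 1 gene usually led. Pfkp stood at 23.5 CPM per kilobase beside 8.32 for Pfkl and 1.90 for Pfkm, all subunits of phosphofructokinase. Hk1 stood at 21.0 beside 3.22 CPM per kilobase for Hk2, both hexokinases, and Ldha at 39.6 beside 0.216 CPM per kilobase for Ldhb, the lactate dehydrogenase subunit that favours making pyruvate.

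Gapdh, usually among the most abundant glycolytic messages, ranked only 17th of the 31 symbols at 3.69 CPM per kilobase. Much of its sequence is repeated elsewhere in the genome. Of the 50-base stretches of its longest coding transcript, 82.5% also occur in another gene, and 222 genes share at least 1 of them, 213 of these annotated as pseudogenes. Over the 12 libraries the table holds 2039 counts for Gapdh and 3808 counts for its pseudogenes. Eno1 (72.2%), Pgk1 (68.0%) and Pgam1 (41.5%) share large parts too, and the sources used here do not state how reads with several matches were counted. The part of these copies in the rank was not tested. The Pdk genes, Slc2a3, Slc16a1 and Hk2 share none (0.0%), so their values do not carry this limit. Values of Gapdh, Eno1, Pgk1 and Pgam1 are therefore uncertain as levels of those genes.

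**Figure D1:**
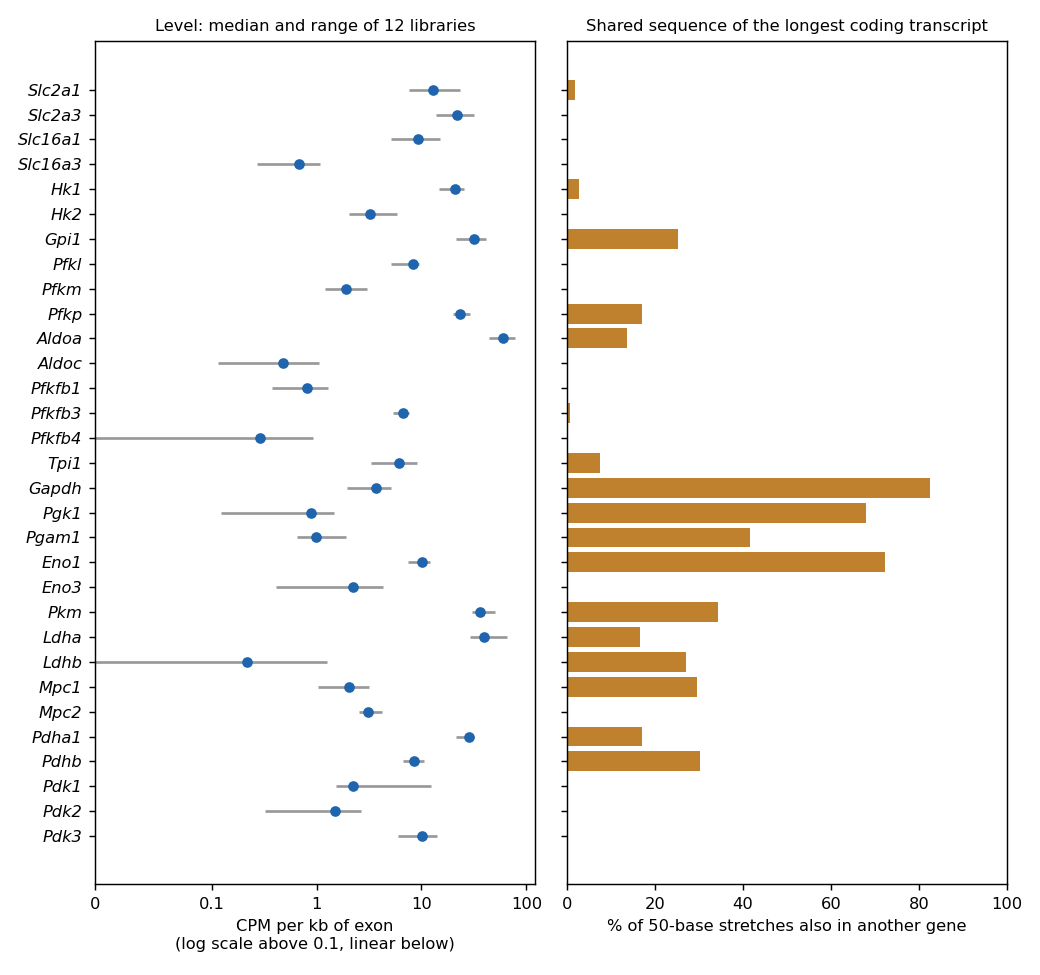
Left, the level of each member in CPM per kilobase of exon, as the median (point) and range (line) over 12 libraries, on an axis that is logarithmic above 0.1 and linear below. Right, the percentage of 50-base stretches of each member's longest coding transcript that also occur in another gene; Gapdh is at 82.5% while its median level is 3.69 CPM per kilobase, and Aldoa leads the levels at 60.4.

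Summed over the members, glycolytic RNA lay in a narrow range. The sum was at 1882 and 2166 CPM in KO MPEC and 1921 and 2011 CPM in WT MPEC on day 14. In SLEC on day 14 it was at 1801 and 1805 CPM in KO and 1607 and 1743 CPM in WT. In SLEC on day 7 it was at 1931 and 2126 CPM in KO and 1795 and 2134 CPM in WT. The 4 SLEC libraries of day 14 lay at the low end, below every MPEC library, and 1 SLEC day 7 library (1795 CPM) fell among them. Differences lay in single genes, and the heat map of members by library shows that Pdk1 carries the strongest contrast.

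**Figure D2:**
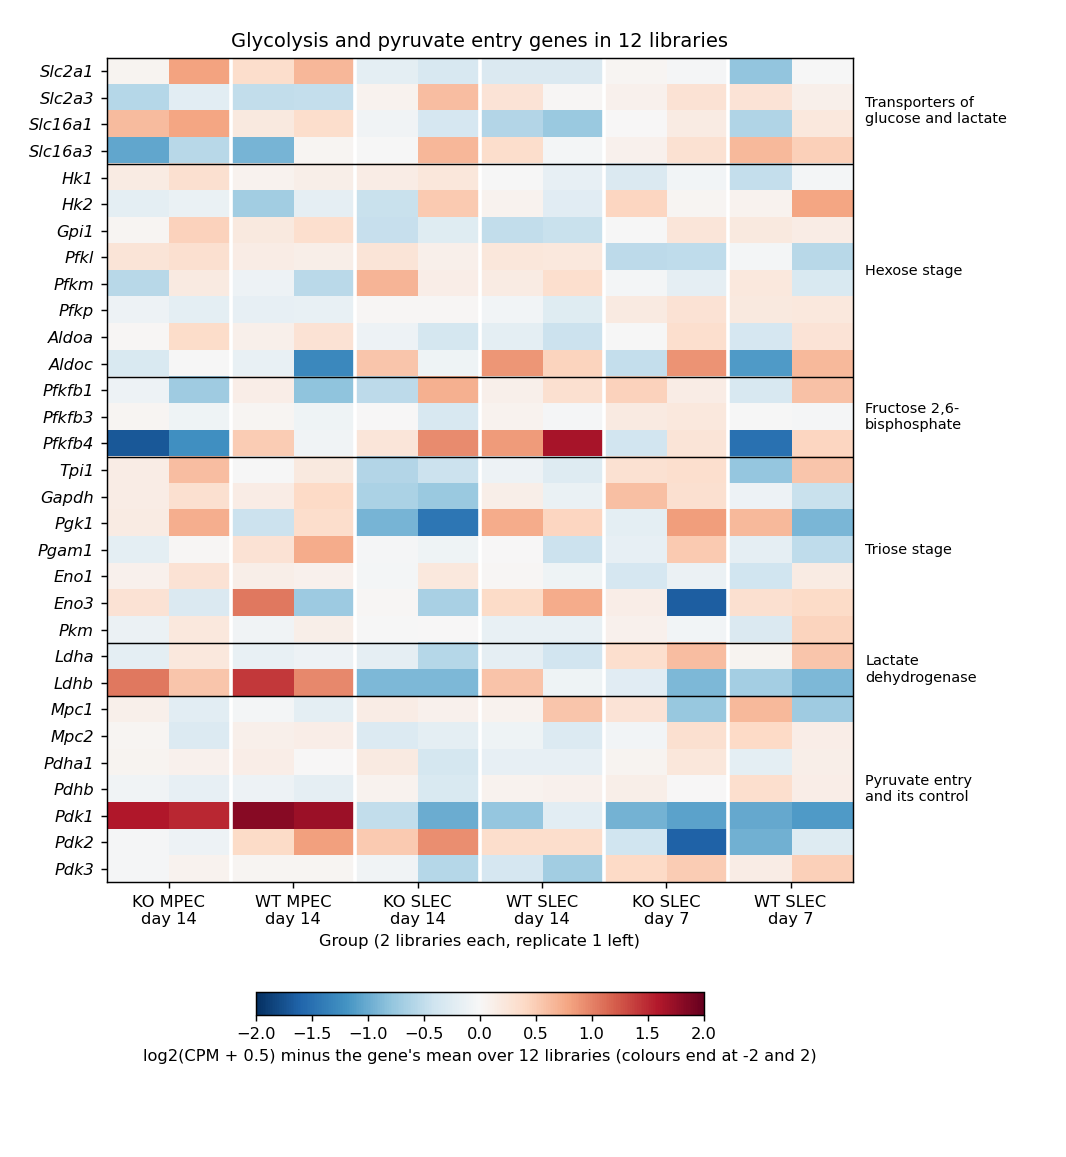
Each cell is log2(CPM + 0.5) of a member in a library minus that member's mean over 12 libraries, with colours ending at -2 and 2; members are ordered by role, libraries by group with replicate 1 on the left. Pdk1 is high in all 4 MPEC libraries (77.9 to 96.1 CPM), while most abundant enzymes such as Hk1 and Pkm stay near their mean in every column.

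MPEC and SLEC were compared on day 14, which holds the day of infection constant and asks how the memory-prone and the short-lived cells differ. With the KO and the WT difference averaged, 7 members were higher in MPEC (Pdk1, Slc16a1, Slc2a1, Gpi1, Aldoa, Gapdh and Ldhb) and 2 were lower (Slc2a3 and Pfkfb4) at an adjusted p under 0.05 in edgeR's quasi-likelihood test. That is 9 of 32, where 13.1% of all tested genes were called (7.14% higher and 5.99% lower). The median log2 change was 0.12 over the members and -0.01 over all tested genes. Pdk1, Slc16a1 and Slc2a3 kept their calls in all 22 alternative settings, also without both WT SLEC day 14 libraries, where they were the 3 members still called. That setting holds no WT SLEC of day 14, so here and below its difference is the one within KO cells.

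Pdk1 encodes pyruvate dehydrogenase kinase 1, which phosphorylates and so inactivates pyruvate dehydrogenase; it lies on chromosome 2 at 71873224 to 71903858 (GRCm38, plus strand). It had 83.0 and 77.9 CPM in KO MPEC and 96.1 and 89.6 CPM in WT MPEC, against 19.1 and 13.3 CPM in KO SLEC and 15.6 and 23.1 CPM in WT SLEC on day 14. Every MPEC library lay above every SLEC library, and in SLEC the genotypes interleaved. The averaged difference was a log2 change of 2.27 ± 0.15 (SE, 4.82-fold; edgeR adjusted p = 1.1e-08). It was 2.29 ± 0.22 within KO cells (edgeR adjusted p = 4.96e-06) and 2.25 ± 0.20 within WT cells (edgeR adjusted p = 1.51e-06). Across the alternative settings it stayed between 2.13 and 2.42. The other kinase genes of the family were not called. Pdk2 had 4.11 and 3.83 CPM in KO MPEC and 5.59 and 7.73 CPM in WT MPEC, against 6.17 and 8.38 CPM in KO SLEC and 5.45 and 5.44 CPM in WT SLEC, a log2 difference of -0.29 (adjusted p = 0.61, edgeR). Pdk3 was at 25.9 ± 0.758 CPM in MPEC and 19.1 ± 3.87 CPM in SLEC (SD, n = 4 each), a log2 difference of 0.43 that missed the threshold (adjusted p = 0.096, edgeR).

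Slc16a1 encodes MCT1, a carrier that moves lactate and pyruvate with a proton across the plasma membrane; it lies on chromosome 3 at 104638668 to 104658462 (plus strand). Its levels were 59.7 and 67.0 CPM in KO MPEC and 44.1 and 49.1 CPM in WT MPEC, against 36.5 and 30.2 CPM in KO SLEC and 25.3 and 22.8 CPM in WT SLEC. All MPEC libraries exceeded all SLEC libraries, with KO above WT inside each population. The log2 difference was 0.94 ± 0.16 (SE, 1.91-fold; edgeR adjusted p = 5.6e-04), and 0.91 without both WT SLEC day 14 libraries, that is within KO cells. Slc16a3, which encodes the lactate exporter MCT4, was scarce and pointed the other way, at 2.20 ± 0.977 CPM in MPEC and 4.28 ± 1.14 CPM in SLEC (SD, n = 4 each), a log2 difference of -0.97 ± 0.39 that was not called (adjusted p = 0.12, edgeR).

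The 2 glucose carriers moved in opposite directions. Slc2a3, which encodes the high-affinity carrier GLUT3 (chromosome 6, 122727809 to 122801640, minus strand), had 100.3 and 128 CPM in KO MPEC and 106 and 107 CPM in WT MPEC, against 157 and 228 CPM in KO SLEC and 180.3 and 151 CPM in WT SLEC. It was lower in every MPEC library, with a log2 difference of -0.69 ± 0.13 (SE; edgeR adjusted p = 0.0011). Slc2a1, which encodes the widespread carrier GLUT1 (chromosome 4, 119108711 to 119137983, plus strand), had 47.6 and 81.1 CPM in KO MPEC and 58.6 and 73.2 CPM in WT MPEC, against 40.4 and 37.0 CPM in KO SLEC and 37.8 and 37.6 CPM in WT SLEC. Again no library crossed over, but the MPEC libraries were far more spread than the SLEC ones. The Slc2a1 log2 difference of 0.77 ± 0.18 (edgeR adjusted p = 0.0079) lost its call without both WT SLEC day 14 libraries (adjusted p = 0.17) and without KO MPEC replicate 2 (adjusted p = 0.066).

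From hexokinase to phosphofructokinase Gpi1 was the called member. Gpi1 (chromosome 7, 34201330 to 34230336, minus strand) had 198 and 264 CPM in KO MPEC and 222 and 244 CPM in WT MPEC, against 140.4 and 163 CPM in KO SLEC and 137 and 141 CPM in WT SLEC. Its groups did not overlap, and the log2 difference was 0.68 ± 0.11 (SE; edgeR adjusted p = 4.0e-04). It was lost only without both WT SLEC day 14 libraries, where KO cells alone are compared (edgeR adjusted p = 0.052). The hexokinases Hk1 and Hk2 (log2 differences 0.12 and -0.31) and the phosphofructokinase subunits Pfkl, Pfkp and Pfkm (0.01, -0.09 and -0.61) were not called. The enzymes of fructose 2,6-bisphosphate, the activator of phosphofructokinase, showed 1 call, in a gene with few reads. Pfkfb4 had 0 and 2 counts in KO MPEC and 24 and 11 counts in WT MPEC, against 14 and 19 counts in KO SLEC and 33 and 72 counts in WT SLEC. Its log2 difference of -2.71 ± 0.81 (edgeR adjusted p = 0.031) was lost in 8 of 22 settings. Pfkfb3 (0.03) and Pfkfb1 (-0.56) were not called.

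From aldolase to pyruvate kinase Aldoa and Gapdh were called, and neither call held in every setting. Aldoa was at 202 ± 22.7 CPM in MPEC and 146 ± 15.5 CPM in SLEC (SD, n = 4 each), a log2 difference of 0.47 ± 0.14 (edgeR adjusted p = 0.034) that was lost in 9 of 22 settings. Gapdh, the dehydrogenase that reduces NAD, was at 16.7 ± 1.55 CPM in MPEC and 11.2 ± 3.30 CPM in SLEC, a log2 difference of 0.62 ± 0.19 (edgeR adjusted p = 0.041) that was lost in 12. With the counts of its pseudogene copies added it was 0.48 (edgeR adjusted p = 0.044). Tpi1, which interconverts the 2 trioses, had a log2 difference of 0.61 and no overlap between MPEC and SLEC libraries, but was not called (adjusted p = 0.12, edgeR). It was called at 0.61 with only the compared groups in the fit (edgeR adjusted p = 0.019), and at 0.61 and 0.60 without WT SLEC day 7 replicate 1 or 2 (edgeR adjusted p = 0.026 and 0.027). The ATP-making steps of Pgk1 and Pkm had log2 differences of 0.79 and 0.12, the mutase Pgam1 0.42, the enolases Eno1 and Eno3 0.12 and 0.10, and the second aldolase Aldoc -1.08, none called.

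At the pyruvate branch, Ldha differed little between MPEC and SLEC (138 ± 18.7 CPM in MPEC and 114 ± 14.6 CPM in SLEC; SD, n = 4 each; log2 difference 0.27; adjusted p = 0.23, edgeR). Ldhb had 14 and 9 counts in KO MPEC and 26 and 14 counts in WT MPEC, against 0 and 0 counts in KO SLEC and 12 and 6 counts in WT SLEC. Reads in SLEC on day 14 came only from the WT libraries, the ones with B cell and myeloid RNA, and the part of that RNA in the Ldhb counts was not tested. Within KO cells the Ldhb difference was 6.37-fold when the 2 empty libraries were given a floor of 3 counts. The MPEC counts were taken as exact, so this value is not a full lower bound. The averaged Ldhb call (adjusted p = 0.034, edgeR) was lost in 11 of 22 settings. The mitochondrial pyruvate carrier genes Mpc1 and Mpc2 (log2 differences -0.35 and 0.22) and the pyruvate dehydrogenase E1 subunit genes Pdha1 and Pdhb (0.18 and -0.12) were not called.

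**Figure D3:**
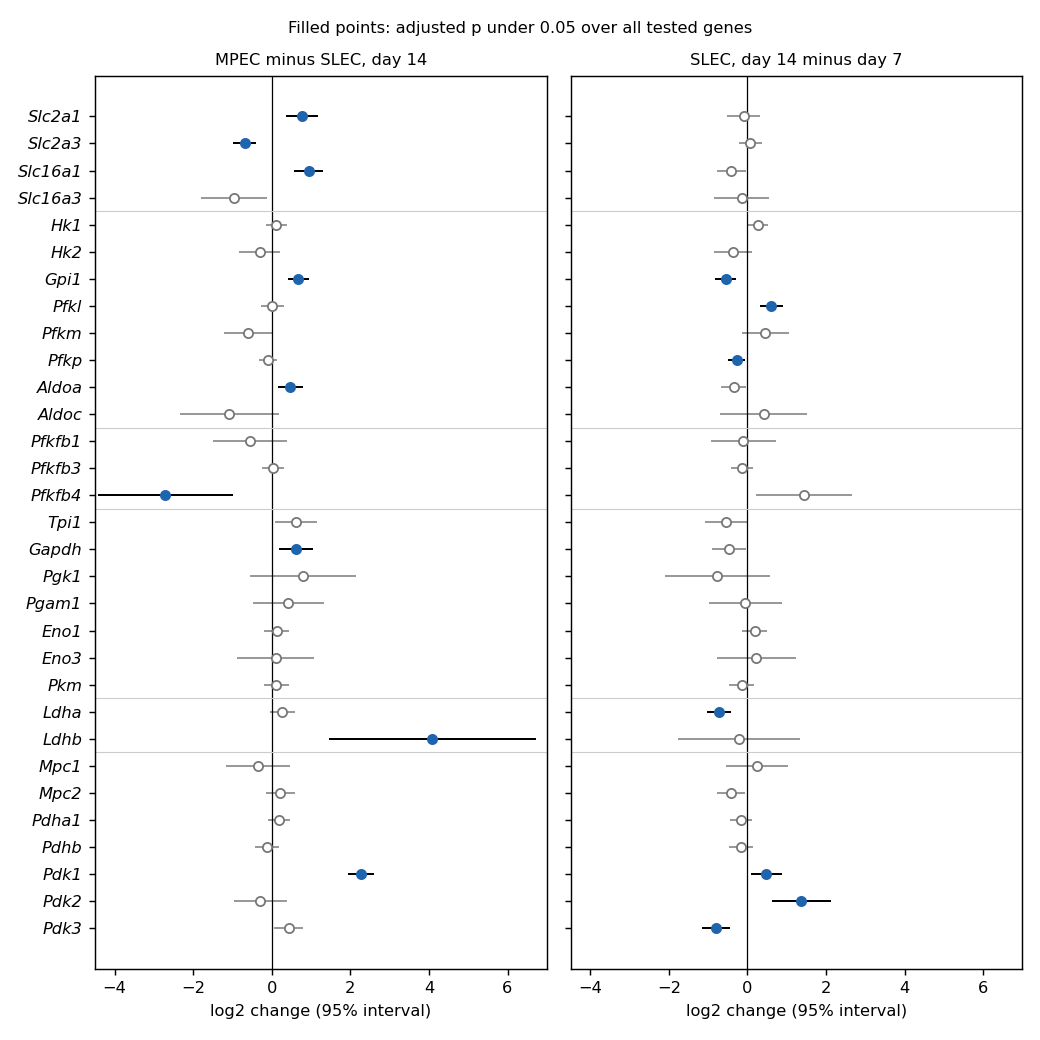
Log2 change of each member with its 95% interval, filled where the edgeR adjusted p is under 0.05: left, MPEC minus SLEC on day 14; right, SLEC on day 14 minus SLEC on day 7, both with the genotypes averaged. Pdk1 lies at 2.27 on the left and 0.48 on the right, and Ldha and Pdk3 lie at -0.72 and -0.79 on the right.

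Within each genotype fewer members passed. In KO cells Gpi1, Pdk1 and Slc16a1 were higher in MPEC and Slc2a3 was lower, 4 of 32 where 5.11% of all genes were called (2.9% higher and 2.21% lower). In WT cells the same 4 genes were called in the same directions, where 7.96% of all genes were called (3.66% higher and 4.3% lower). Those KO and WT calls come from separate libraries, although the spread was estimated jointly.

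The promoters of 3 called members are shown: Pdk1 and Slc16a1, higher in MPEC under every setting, and Ldha, lower in SLEC on day 14 than on day 7 under every setting, as described next. The windows run from 250 bases before to 50 bases after a RefSeq transcript start on GRCm38.p6, all on the plus strand. They are chr2:71872974-71873273 for Pdk1, chr3:104638414-104638713 for Slc16a1 and chr7:46845554-46845853 for Ldha. Capitals mark ACGTG or its variant GCGTG, read on either strand, the cores bound by hypoxia-inducible factors. The E-box CACGTG, bound by MYC and related proteins, contains the first core on both strands and so counts as 2 matches of it.
Pdk1: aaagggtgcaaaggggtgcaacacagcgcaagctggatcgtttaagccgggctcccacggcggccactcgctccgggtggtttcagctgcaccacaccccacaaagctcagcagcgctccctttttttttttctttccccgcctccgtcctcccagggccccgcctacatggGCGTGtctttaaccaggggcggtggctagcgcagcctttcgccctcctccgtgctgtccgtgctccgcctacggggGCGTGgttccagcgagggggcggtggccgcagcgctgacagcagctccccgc
Slc16a1: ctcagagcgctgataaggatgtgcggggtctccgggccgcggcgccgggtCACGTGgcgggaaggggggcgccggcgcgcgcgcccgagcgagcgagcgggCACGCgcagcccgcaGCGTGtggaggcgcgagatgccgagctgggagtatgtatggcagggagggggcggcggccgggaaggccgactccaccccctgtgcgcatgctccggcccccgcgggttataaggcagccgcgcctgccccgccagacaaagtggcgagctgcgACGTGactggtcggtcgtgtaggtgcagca
Ldha: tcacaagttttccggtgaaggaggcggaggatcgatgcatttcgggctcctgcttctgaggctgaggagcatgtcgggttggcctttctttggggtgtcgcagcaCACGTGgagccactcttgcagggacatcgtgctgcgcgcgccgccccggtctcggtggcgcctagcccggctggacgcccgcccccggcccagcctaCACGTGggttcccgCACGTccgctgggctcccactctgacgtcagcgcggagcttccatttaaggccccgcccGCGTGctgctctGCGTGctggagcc
Pdk1 and Ldha have several RefSeq windows, and the one with most matches is shown: a second Pdk1 window has 0 matches, and a second Ldha window has 2 of the variant and 0 of the first core. The Pdk1 window shown holds 2 matches, both of the GCGTG variant. The Slc16a1 window holds 3 of the first core, with 1 E-box among them, and 2 of the variant. In the Ldha window shown there are 5 of the first core, with 2 E-boxes among them, and 2 of the variant. RefSeq windows were matched for 30 of the 31 symbols (48 windows), all but Slc2a3. Either core was present in 36 of the 48 windows (75.0%), against 43.8% of all 32851 windows and 61.2% of the 12106 windows of tested genes. The first core was in 41.7% of member windows, 19.6% of all windows and 25.6% of those of tested genes. The variant was in 56.2% of member windows, 32.4% of all windows and 49.7% of those of tested genes. The E-box was in 10.4% of member windows, 7.15% of all windows and 9.85% of those of tested genes. These are letter matches and say nothing of binding in these cells.

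SLEC on day 14 were then compared with SLEC on day 7, after the peak of the response. Cell division fell sharply between these days: all 18 proliferation markers had a negative log2 change, 16 of them called lower, with a median of -3.51. Mki67, a marker of cycling cells, averaged 51.55 ± 19.5 CPM on day 14 and 1051 ± 420.0 CPM on day 7 (SD, n = 4 each). The glycolytic members did not follow as a block. With the genotypes averaged, 5 entries fell (Ldha, Pdk3, Gpi1, Pfkp and the second Aldoa entry) and 3 rose (Pfkl, Pdk2 and Pdk1), 8 of 32 where 25.1% of all tested genes were called (11.4% higher and 13.7% lower). The median log2 change was -0.15 over the members and 0.02 over all tested genes. Scaled by total counts alone, which moves the median of all genes by 0.15 on the log2 scale, 4 members were called higher and 3 lower, and 67.1% of called genes were higher, against 45.5% with TMM scaling.

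Ldha (chromosome 7, 46841475 to 46855627, plus strand) had 126 and 95.9 CPM in KO and 126 and 109 CPM in WT SLEC on day 14, against 179.7 and 218 CPM in KO and 148 and 210.1 CPM in WT SLEC on day 7. Every day 14 library was below every day 7 library. The log2 change was -0.72 ± 0.14 (SE, 1.65-fold lower; edgeR adjusted p = 7.6e-04), and it was called in all 22 alternative settings, from -0.89 to -0.57. Pdk3 (chromosome X, 93764607 to 93832201, minus strand) had 24.2 and 16.9 CPM in KO and 20.02 and 15.4 CPM in WT SLEC on day 14, against 33.7 and 36.2 CPM in KO and 28.1 and 35.3 CPM in WT SLEC on day 7. It too separated the days in both genotypes, with a log2 change of -0.79 ± 0.16 (edgeR adjusted p = 0.0013) that stayed called in all 22 settings.

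The kinase family thus changed in both directions between the SLEC days. Pdk2 (chromosome 11, 95026258 to 95041354, minus strand) had 6.17 and 8.38 CPM in KO and 5.45 and 5.44 CPM in WT SLEC on day 14, against 3.05 and 1.02 CPM in KO and 1.91 and 3.38 CPM in WT SLEC on day 7. All day 14 libraries were higher, with a log2 change of 1.37 ± 0.34 (edgeR adjusted p = 0.0068) that was lost when B cell marker RNA was a covariate (adjusted p = 0.073). Pdk1 rose by 0.48 ± 0.17 on the log2 scale, to 17.8 ± 4.27 CPM on day 14, against 12.8 ± 0.689 CPM on day 7 (SD, n = 4 each). That call was borderline (edgeR adjusted p = 0.0499) and was lost in 15 of 22 settings.

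Phosphofructokinase subunits also went apart. Pfkl (chromosome 10, 77986947 to 78010083, minus strand) had 60.2 and 53.9 CPM in KO and 59.3 and 58.2 CPM in WT SLEC on day 14, against 35.0 and 35.2 CPM in KO and 48.8 and 34.0 CPM in WT SLEC on day 7. Its rise of 0.60 ± 0.13 on the log2 scale (edgeR adjusted p = 0.0021) held in all 22 settings. Pfkp, the more abundant subunit gene, fell by 0.28 ± 0.09 on the log2 scale (edgeR adjusted p = 0.037), to 305 ± 25.3 CPM on day 14, against 369.9 ± 12.5 CPM on day 7 (SD, n = 4 each). The Pfkp call was lost in 13 of 22 settings, and its gene overlaps Pitrm1 in the annotation. Gpi1 was at 145 ± 11.99 CPM on day 14 and 214 ± 15.4 CPM on day 7, with no overlap and a log2 change of -0.56 ± 0.11 (edgeR adjusted p = 0.0014). The Gpi1 call was lost with the B cell covariate (edgeR adjusted p = 0.085). It was also lost without both WT SLEC day 14 libraries, where KO cells alone are compared (edgeR adjusted p = 0.063). The second Aldoa entry had 3 and 0 counts in KO and 1 and 0 counts in WT on day 14, against 7 and 11 counts in KO and 4 and 18 counts in WT on day 7 (adjusted p = 0.047, edgeR, lost in 19 of 22 settings).

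A further 4 members, 3 enzyme genes and the carrier gene Slc16a1, were not called with all libraries but were with 1 left out. Aldoa, Tpi1, Slc16a1 and Pkm had log2 changes of -0.35, -0.55, -0.41 and -0.15, with adjusted p of 0.079 and 0.11 for Aldoa and Tpi1 in edgeR. Without WT SLEC day 7 replicate 1, the day 7 library with the lowest proliferation markers, these 4 were called lower at -0.49, -0.81, -0.59 and -0.31 (edgeR adjusted p = 0.0058, 0.0031, 0.0038 and 0.041). Aldoa was also called with no filter on low counts (-0.35, edgeR adjusted p = 0.027). The share of all genes called without that day 7 library is not given here. That library held 138 CPM of Aldoa, 9.14 CPM of Tpi1, 25.2 CPM of Slc16a1 and 26.5 CPM of Slc2a1, each the lowest of the 4 day 7 libraries, and the part of cell division in these levels was not tested. Gapdh changed by -0.47 (adjusted p = 0.088, edgeR) and was called at -0.66 once pseudogene counts were added (edgeR adjusted p = 0.0034). Without both WT SLEC day 14 libraries, which leaves the change within KO cells only, Gapdh was called at -1.21 (edgeR adjusted p = 0.011).

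The glucose carrier and hexokinase genes were not called between the SLEC days. Slc2a1 averaged 38.2 ± 1.51 CPM on day 14 and 41.2 ± 9.80 CPM on day 7, and Slc2a3 averaged 179 ± 34.9 CPM on day 14 and 170.2 ± 12.5 CPM on day 7 (SD, n = 4 each; log2 changes -0.10 and 0.07). Hk1 was at 182 ± 21.4 CPM on day 14 and 152 ± 21.4 CPM on day 7 (log2 change 0.26; adjusted p = 0.10, edgeR). Hk1 was called higher by total-count scaling (0.41, edgeR adjusted p = 0.023) and without WT SLEC day 7 replicate 2 (0.38, edgeR adjusted p = 0.016). Hk2 averaged 20.3 ± 6.23 CPM on day 14 and 25.7 ± 6.69 CPM on day 7 (log2 change -0.37; adjusted p = 0.24, edgeR). Mpc2, a subunit of the pyruvate carrier, was at -0.42 (adjusted p = 0.060, edgeR), and was called without KO SLEC day 7 replicate 1 (-0.52, edgeR adjusted p = 0.034) and without WT SLEC day 7 replicate 2 (-0.49, edgeR adjusted p = 0.046). Pdha1, Pdhb and Mpc1 were at -0.16, -0.17 and 0.25, Pfkfb1, Pfkfb3 and Pfkfb4 at -0.11, -0.15 and 1.43, and Slc16a3 at -0.15, none called. Without WT SLEC day 7 replicate 2 the low-count Pfkfb4 was at 3.10 and called. That omission, also used for Hk1 and Mpc2 above, leaves WT SLEC on day 7 as replicate 1 alone, the library with low proliferation markers. Eno1, Eno3, Pgam1, Pgk1, Aldoc, Pfkm and Ldhb had log2 changes of 0.19, 0.22, -0.05, -0.77, 0.41, 0.46 and -0.22, also uncalled.

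**Figure D4:**
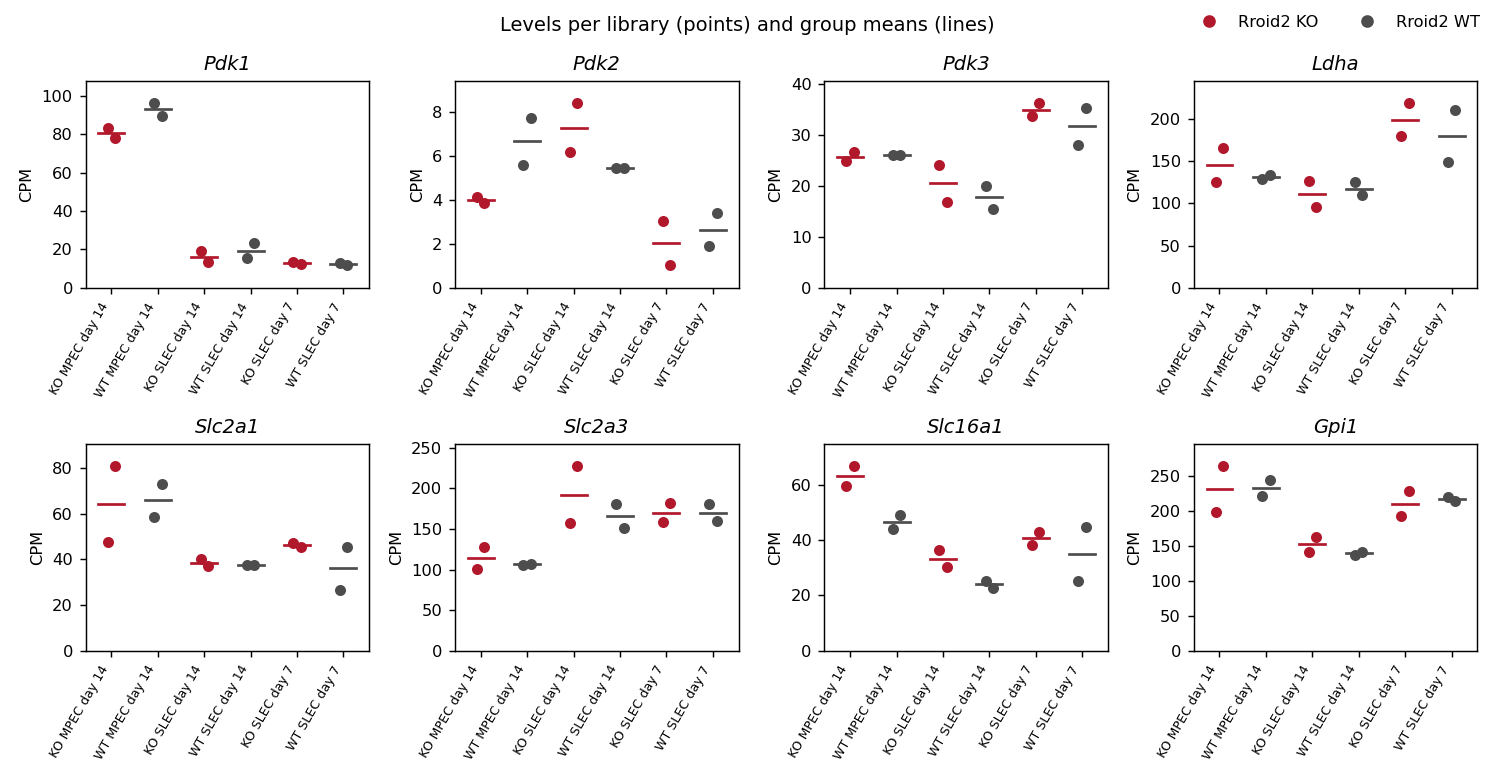
CPM of 8 members in each library (points) with the group mean of 2 libraries (line), KO in red and WT in grey, for MPEC on day 14 and SLEC on days 14 and 7; every panel starts at 0. Pdk1 separates MPEC (77.9 to 96.1 CPM) from all SLEC libraries (12.1 to 23.1 CPM), while Ldha and Pdk3 are highest in SLEC on day 7.

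Within each genotype, KO cells had 5 calls between the SLEC days (Pfkl and Pdk2 higher; Gapdh, Ldha and Pdk3 lower), where 17.2% of all genes were called (7.7% higher and 9.5% lower). WT cells had 3 calls, all lower (Gpi1, Ldha and Pdk3), where 9.94% of all genes were called (4.69% higher and 5.25% lower). Gpi1 in KO was not called at -0.47 (adjusted p = 0.051, edgeR) and was called lower in 11 of 21 alternative settings, DESeq2 and the replicate block among them. The WT calls depend on scaling: by total counts alone 2 other calls, both higher, replaced them, the median of all genes moved by 0.21 on the log2 scale, and 75.3% of called genes were higher, against 47.2% with TMM scaling. Ldha fell by 0.83 in KO and by 0.61 in WT on the log2 scale (edgeR adjusted p = 0.0069 in KO and 0.0495 in WT), and the WT call was lost in 18 of 21 settings.

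Ratios of isozyme genes within a library do not depend on library scaling, so they were compared as log2 ratios of counts with 0.5 added, by an exact two-sided permutation test of 4 against 4 libraries. The smallest p this design allows is 0.0286, and over the 12 tests the smallest adjusted p was 0.0857, so none passed. A single ratio at that smallest p could not pass after adjustment over 12 tests. The lack of a call therefore says little, and the ratios are given as descriptions. The Pdk1 to Pdk2 log2 ratio was 4.07 ± 0.38 in MPEC and 1.47 ± 0.59 in SLEC on day 14 (SD, n = 4 each; exact permutation p = 0.0286). The Slc2a3 to Slc2a1 log2 ratio was 0.78 ± 0.23 in MPEC and 2.21 ± 0.30 in SLEC (exact permutation p = 0.0286), and that of Slc16a3 to Slc16a1 was -4.69 ± 0.66 in MPEC and -2.74 ± 0.46 in SLEC (exact permutation p = 0.0286). In those 3 ratios every MPEC library lay outside the SLEC range, which is the same fact as the smallest possible p. The Ldha to Ldhb log2 ratio was 6.63 ± 0.64 in MPEC and 9.22 ± 1.97 in SLEC, with overlapping libraries (exact permutation p = 0.0571). It rests on few Ldhb counts. Between the SLEC days the Pfkp to Pfkl log2 ratio was 2.40 ± 0.15 on day 14 and 3.29 ± 0.26 on day 7, again without overlap (exact permutation p = 0.0286). The Pdk1 to Pdk2 ratio (exact permutation p = 0.0571) and the Hk2 to Hk1 ratio (exact permutation p = 0.0571) were lower on day 14 with overlapping libraries.

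Loss of Rroid2 changed no member past the threshold in any population. With the KO minus WT difference averaged over the 3 populations, 0 of 32 entries were called by edgeR's quasi-likelihood test, where 0.083% of all genes were called. At an unadjusted p under 0.05 there were 3 members (8.26% of all genes). DESeq2 called 0 members, where it called 0.615% of all genes, with 2 members at an unadjusted p under 0.05 (share of all genes not given here). In MPEC edgeR called 0 members (0.0138% of all genes), with 1 at an unadjusted p under 0.05 (2.46% of all genes), and DESeq2 0 members (0.0346%). In SLEC on day 14 edgeR called 0 (0.546%), with 3 at an unadjusted p under 0.05 (12.5%), and DESeq2 0 (1.81%). In SLEC on day 7 edgeR called 0 (0.0277%), with 1 at an unadjusted p under 0.05 (3.37%), and DESeq2 0 (0.0415%). For the 16 members with a median of at least 20 CPM, the averaged KO effects lay between -0.14 and 0.38 on the log2 scale, and their 95% intervals between -0.41 (Mpc2) and 0.66 (Slc16a1). Within single populations the intervals of these 16 reached from -0.71 (Mpc2, MPEC) to 0.98 (Slc16a1, SLEC on day 14).

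In the averaged KO minus WT difference the lowest adjusted p of a member belonged to Slc16a1, at a log2 KO effect of 0.38 ± 0.13 (SE; adjusted p = 0.47, edgeR). Its KO libraries were above both WT libraries in MPEC and in SLEC on day 14, at log2 differences of 0.45 and 0.48. KO and WT libraries separated, in either direction, for 8 of 32 members in MPEC and 11 in SLEC on day 14 (share of all genes not given here). On day 7 Slc16a1 had 38.5 and 43.1 CPM in KO, against 25.2 and 44.7 CPM in WT, so the groups overlapped there. Without WT SLEC day 7 replicate 2 the averaged effect was 0.54 and passed the threshold. WT SLEC on day 7 was then replicate 1 alone, the library with low proliferation markers and 25.2 CPM of Slc16a1. Pdk1, the member that separated the populations most, had an averaged log2 KO effect of -0.12 (95% interval -0.40 to 0.15), and Ldha one of 0.08 (95% interval -0.16 to 0.31).

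Gapdh had opposite KO differences on the 2 days, neither of them called. It had 8.80 and 8.11 CPM in KO SLEC, against 15.1 and 12.7 CPM in WT SLEC on day 14, and 21.3 and 17.6 CPM in KO SLEC, against 13.0 and 10.1 CPM in WT SLEC on day 7. The KO libraries were the lower ones on day 14 and the higher ones on day 7, with no overlap on either day. Such separation of 2 against 2 libraries was common. It was seen in 11 of 32 members in SLEC on day 14 and in 6 on day 7 (share of all genes not given here). The difference between the 2 KO effects was -1.47 ± 0.39 on the log2 scale (SE; adjusted p = 0.63, edgeR), which does not pass over all genes. With pseudogene counts added, the KO effects were -0.01 on day 14 and 0.32 on day 7, and their difference was -0.33. Pgk1, another gene with many copies, had 6 and 2 counts in KO SLEC, against 41 and 37 counts in WT SLEC on day 14 (adjusted p = 0.26, edgeR). Summed B cell markers were at 26.8 and 65.9 CPM in KO SLEC, against 756 and 2892 CPM in WT SLEC on day 14, and monocyte and macrophage markers at 7.15 and 14.7 CPM in KO SLEC, against 52.9 and 66.5 CPM in WT SLEC. With B cell marker RNA as a covariate, the day 14 log2 KO effect was -1.32 for Gapdh, against -0.71 without it, and -4.96 for Pgk1, against -2.49, none called. The covariate was fitted on differences between the 2 libraries of each group and extended to the wider gap between KO and WT. These values therefore do not isolate the part of B cell RNA. The part of the monocyte and macrophage markers was not tested. Whether the KO effect differed between the SLEC days was tested for each member. edgeR called 0 (0.00692% of all genes), with 2 at an unadjusted p under 0.05 (6.58% of all genes), and DESeq2 0 (0.194%), with 3 (share not given here). Between MPEC and SLEC the same test by edgeR called 0 (0% of all genes), with 1 at an unadjusted p under 0.05 (4.23%), and DESeq2 0 (0%), with 1 (share not given here).

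**Figure D5:**
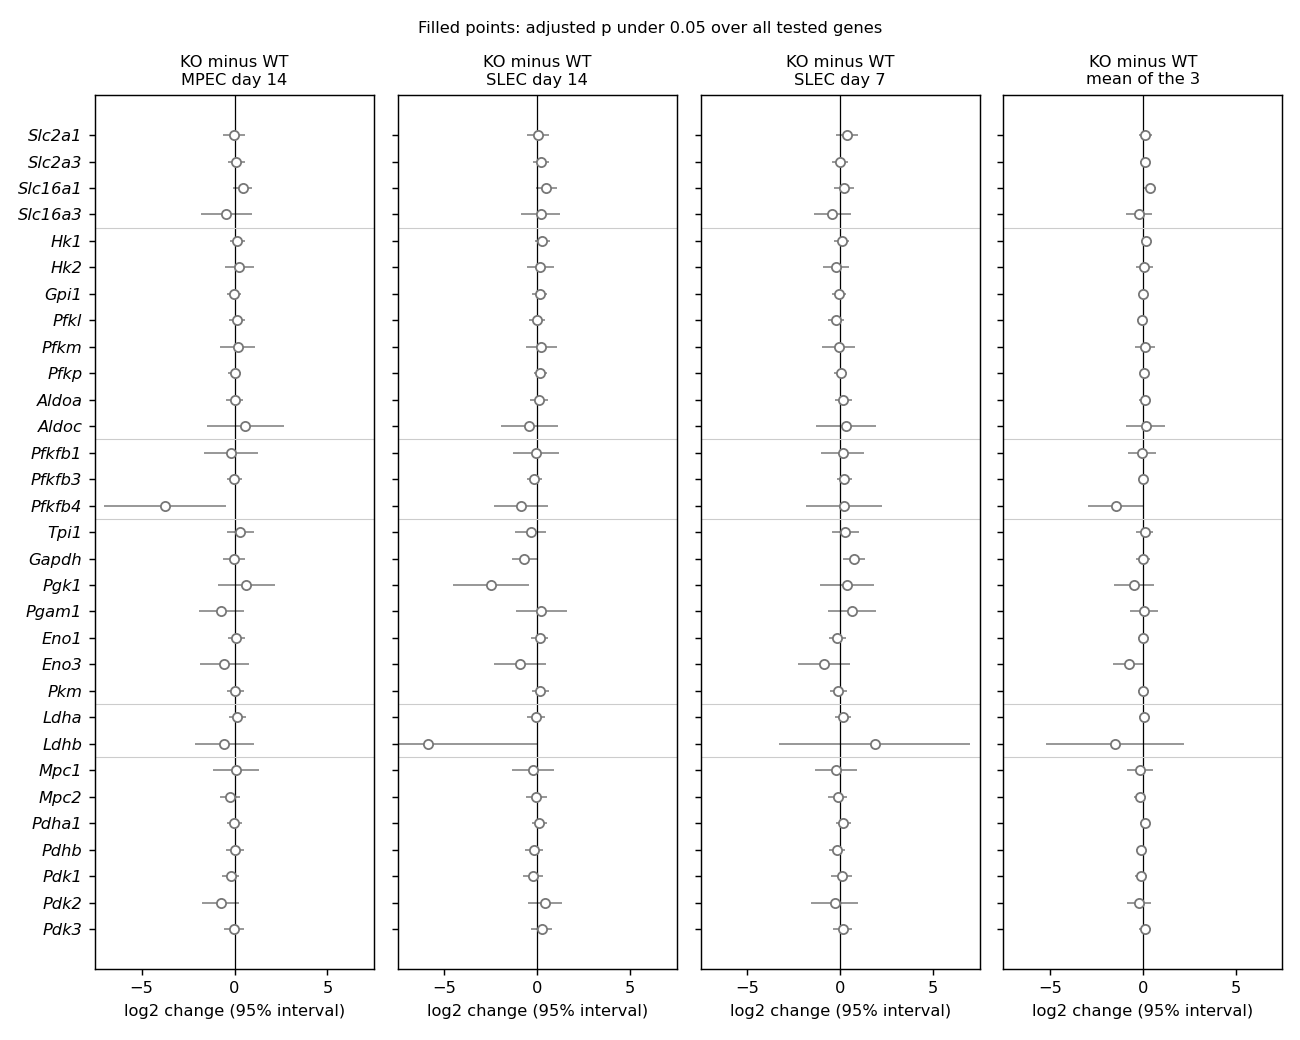
KO minus WT log2 difference of each member with its 95% interval in MPEC on day 14, SLEC on day 14 and SLEC on day 7. No member passes an edgeR adjusted p of 0.05; scarce genes have the widest intervals, and that of Ldhb in SLEC on day 14 runs past the left edge.

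Neighbouring pathways were read from gene lists in the same fits. Between the SLEC days 11 of 18 tricarboxylic acid cycle genes fell and 1 rose, where 13.7% of all tested genes were called lower and 11.4% higher, and the list's median log2 change was -0.43, beside 0.02 over all tested genes. The list was not tested against the glycolytic members. Sdhb, the iron-sulfur subunit of succinate dehydrogenase, averaged 44.6 ± 7.59 CPM on day 14 and 87.9 ± 4.55 CPM on day 7 (SD, n = 4 each; log2 change -0.98 ± 0.12, edgeR adjusted p = 1.9e-05). Sdhd, a membrane anchor of the same complex, fell by 1.05, Idh3a, a catalytic subunit of isocitrate dehydrogenase, by 0.80, and Fh1, the fumarase, by 0.80 on the log2 scale. The single riser, Sdha, the flavoprotein subunit of succinate dehydrogenase, was singled out after its values were seen; it averaged 223 ± 25.5 CPM on day 14 and 161 ± 24.4 CPM on day 7 (log2 change 0.46 ± 0.11, edgeR adjusted p = 0.0059).

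Fatty acid oxidation genes fell in 7 of 18 and rose in 0 between the SLEC days, beside the same shares of all genes (13.7% lower and 11.4% higher). They include the electron transfer flavoprotein genes Etfb (-0.93) and Etfa (-0.91) and the acyl-CoA dehydrogenase genes Acadl (-0.91) and Acads (-0.88). Of 11 pentose phosphate genes, Taldo1 (transaldolase, -0.54) and Tkt (transketolase, -0.43) fell and H6pd (0.68) rose, where 25.1% of all genes were called in either direction. Between MPEC and SLEC, where 13.1% of all genes were called, 2 of 18 tricarboxylic acid cycle genes (Suclg1, 0.63, and Mdh1, 0.40), 1 of 18 fatty acid oxidation genes (Eci1, 0.67) and 1 of 11 pentose phosphate genes (Prps2, 0.50) were called, all higher in MPEC. Proliferation markers were called in 0 of 18 between MPEC and SLEC by edgeR, with 0 at an unadjusted p under 0.05.

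Of 43 further listed genes of glycolysis and pyruvate handling, 19 passed the filter. Between the SLEC days Pck2, the mitochondrial phosphoenolpyruvate carboxykinase (0.83), and Adpgk, an ADP-dependent glucokinase (0.54), rose, and Bpgm, the bisphosphoglycerate mutase (-0.62), fell. In MPEC, Pgm1 (0.56), which links glycogen to glycolysis, was higher, and Pck2 (-0.97) and Pgm2 (-0.48) were lower than in SLEC. Among 8 tested genes of glutamine use, Glud1, the glutamate dehydrogenase (-0.40), fell between the SLEC days. Of the amino acid carriers, Slc38a1 (0.50) was higher and Slc38a2 (-0.41) lower in MPEC. Over all tested genes 25.1% were called between the SLEC days and 13.1% between MPEC and SLEC.

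Of 26 tested regulators of glycolysis, 2 were higher and 2 lower in MPEC than in SLEC, where 13.1% of all genes were called. Myc, a transcription factor that drives glycolytic genes in activated T cells, averaged 92.0 ± 5.33 CPM in MPEC and 9.17 ± 6.61 CPM in SLEC on day 14 (SD, n = 4 each; log2 difference 3.43 ± 0.29, edgeR adjusted p = 8.6e-06). Foxo1, a factor that maintains memory T cells, averaged 198 ± 23.9 CPM in MPEC and 114 ± 10.8 CPM in SLEC (log2 difference 0.80 ± 0.11). Akt2 (-0.50) and Tsc2 (-0.44) were lower in MPEC. Between the SLEC days 9 regulators rose and 1 fell, where 11.4% of all genes were called higher and 13.7% lower; by total counts alone the share of called genes that were higher was 67.1%, against 45.5% with TMM scaling. Txnip, which restrains glucose uptake, averaged 633 ± 76.3 CPM on day 14 and 343.5 ± 36.5 CPM on day 7 (log2 change 0.88 ± 0.10, edgeR adjusted p = 9.3e-06).

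Hypoxia response genes outside glycolysis did not share a direction between MPEC and SLEC: of 13 tested, 2 were higher (Egln3, 1.80, and Fam162a, 0.79) and 3 lower (Bhlhe40, -2.21, Mxi1, -0.85, and Kdm3a, -0.45). Bhlhe40 averaged 83.3 ± 34.9 CPM in MPEC and 385 ± 113 CPM in SLEC (SD, n = 4 each). Between the SLEC days 1 of the 13 was called, Ankrd37, which fell by 1.82, where 25.1% of all genes were called. Between MPEC and SLEC 7.14% of all genes were called higher and 5.99% lower. In the averaged KO minus WT difference edgeR called 0 genes of these 7 lists, where 0.083% of all genes were called and 8.26% had an unadjusted p under 0.05. At an unadjusted p under 0.05 there were 2 of 18 fatty acid oxidation genes, 2 of 19 further glycolysis genes, 1 of 8 glutamine genes, 1 of 26 regulators, 1 of 13 hypoxia genes and 0 of the 18 tricarboxylic acid cycle and 11 pentose phosphate genes.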

How the data were processed

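RNA of sorted cells was measured in 12 libraries. The deposited file holds whole-number counts per gene, not normalized by the authors. Per the labels' protocols, cells were lysed at the sort and a stranded SMART-Seq kit was used for the libraries. The submitters' processing notes name bcl2fastq and STAR 2.6.1a with the genome GRCm38. The counter, its strand setting and its annotation are not stated, so overlapping genes remain uncertain.

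Genes were kept by edgeR's filterByExpr (minimum count 10) over the 6 groups, scaled by TMM and fitted on all 12 libraries with 1 coefficient a group by edgeR's quasi-likelihood test (edgeR 4.0.16, R 4.3.3), with Benjamini-Hochberg adjustment over 14460 genes and a threshold of 0.05. This left 6 residual degrees of freedom, and 12 comparisons were read from the fit. DESeq2 1.42.0 was an alternative. CPM values use TMM-scaled library sizes. A group without counts was given a floor of 3 counts for fold values. These cover counting error in the empty group only, not in the other group or between libraries.

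Replicates of a group differed by more than sampling noise (chi-square per degree of freedom 12.3 to 69.2), so each library was kept. Gene IDs matched the annotation for 54673 of 55421 entries (98.7%). Every member is reported; of each other list, up to 4 called genes with the largest change are named, and Sdha and Kdm3a were added after their values were seen. The members and lists were chosen with earlier results of these data known. On simulated counts for the MPEC and SLEC comparison with 13837 genes, the test recovered 41.8% of genes changed 1.5-fold and 95.5% of those changed 2-fold. Only genes averaging at least 20 CPM were changed, a level that 16 of the 32 member entries reach by median. The simulation does not cover the scarcer members. False calls were 4.82% of calls there and 8.05% in the simulated SLEC day comparison. Far fewer genes were changed than were called in the data, as many up as down. No group difference in B cell RNA was simulated. Recovery and false calls in the data may therefore differ from these rates. No protein sequences were used here.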

Additional observations from a re-analysis of the deposited data

How the results depend on the processing

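No result changed direction past the threshold in any of the 22 alternatives, of which 12 leave out 1 library each. Between the SLEC days the averaged count of 8 members became 3 with B cell marker RNA as a covariate, 5 with only the compared groups in the fit and 5 without both WT SLEC day 14 libraries. In KO it was 3 with only the compared groups, against 5. In WT it was 0 with the B cell covariate and 0 with only the compared groups, against 3. The B cell covariate was fitted on differences between the 2 libraries of each group. In WT SLEC on day 7 those libraries also differ in proliferation markers, at 1138 and 3452 CPM. Calls lost with the covariate therefore do not isolate B cell RNA. For MPEC minus SLEC the averaged count of 9 became 3 without both WT SLEC day 14 libraries, and the KO count of 4 became 1 with the B cell covariate. Leaving out 1 library gave 5 to 11 between the SLEC days (0 to 7 in KO, 0 to 6 in WT) and 4 to 10 between MPEC and SLEC (1 to 6 in KO, 1 to 5 in WT). The KO count of 0 came without KO SLEC day 14 replicate 2, the WT count of 0 without WT SLEC day 14 replicate 2, and the count of 4 without KO MPEC replicate 2. The averaged KO effect gave 0 to 1, and the other KO effects 0 throughout. The cause of these shifts was not tested, and neither was the part of the smaller number of libraries where some were left out. The share of all genes called in each setting is not given here, so the member counts are not set against it. Leaving out both WT SLEC day 14 libraries and adding pseudogene counts were alternatives chosen after seeing the data. The former compares populations and days within KO cells only, and its averaged KO effect spans MPEC and SLEC of day 7. Same-numbered libraries did not deviate together (correlations -0.133 to 0.117), so the numbers do not pair them. With the replicate number as a block, 6 members were called between the SLEC days (6 in KO, 2 in WT), 9 between MPEC and SLEC (4 in KO, 5 in WT) and 0 in the KO effects. Members with a median under 5 CPM rest on few counts: Pdk2, Mpc1, Eno3, Slc16a3, Pfkfb1, Pgk1, Pgam1, Aldoc, Pfkfb4, Ldhb and the second Aldoa entry.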
